A study of Mus musculus with 2 samples.

Results

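The miR-200 family of the mouse comprises 5 miRNA genes in a pair of genomic clusters, Mir200b, Mir200a and Mir429 on chromosome 4 and Mir200c and Mir141 on chromosome 6. The 5 genes were taken by name from 1973 miRNA genes counted in the intestine of newborn mice, and all 5 were found. MicroRNA sequencing had been run on intestine tissue, with no segment named, from 2 B6NCrl pups at postnatal day 0. Both came from the same pregnant female. Each pup gave 1 library, sex was not collected, and neither animal carried a named allele or received a named treatment. The series has 1 group and no control, so the values describe the level of each family gene in newborn gut and how far the littermates, called pup 1 and pup 2, differed.

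As background, miR-200 family miRNAs are abundant in epithelial cells and scarce in mesenchymal cells. They repress Zeb1 and Zeb2, transcription factors that turn off epithelial genes such as E-cadherin, and ZEB proteins in turn repress both miR-200 clusters, a loop studied in epithelial-mesenchymal transition and in the intestinal epithelium. Each cluster is transcribed as a shared primary RNA that is cut into hairpins. The hairpins are cut further into a 5p and a 3p arm, and in this family the 3p arm is the arm generally studied as the active miRNA. A miRNA finds its targets mainly through its seed, bases 2 to 8 from the 5′ end.

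The 3p arms are shown because their seeds divide the family across the clusters. Sequences are from RefSeq on GRCm38.p6, in which all 5 genes were matched by symbol and position, and capitals mark the seed.
mmu-miR-200b-3p: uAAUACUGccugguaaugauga
mmu-miR-200c-3p: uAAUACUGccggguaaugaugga
mmu-miR-429-3p: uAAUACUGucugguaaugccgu
mmu-miR-200a-3p: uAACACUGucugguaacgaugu
mmu-miR-141-3p: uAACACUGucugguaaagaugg

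Mir200b, Mir200c and Mir429 share the seed AAUACUG, and Mir200a and Mir141 share the seed AACACUG. Each cluster thus holds both seeds. Among 1738 mature miRNAs of the RefSeq table, 3 carried the first seed and 2 the second, all of them family members. Positions below count from 1 at the 5′ end, with the base of the first-named arm first, over 22 bases. From miR-200b-3p to miR-200c-3p, on different chromosomes, the changes were U11G and A22G. From miR-200a-3p to miR-141-3p, again on different chromosomes, they were C17A and U22G. Within the chromosome 4 cluster, miR-200b-3p and miR-200a-3p differed by U4C, C9U, U17C and A22U, of which only U4C lies in the seed.

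The counted unit is the hairpin, so reads of both arms add up under 1 gene. The hairpins of Mir200b and Mir200a are shown because these neighbours share a 5p seed, differ in the 3p seed and were far apart in level; capitals mark the 3p arm.
Mir200b: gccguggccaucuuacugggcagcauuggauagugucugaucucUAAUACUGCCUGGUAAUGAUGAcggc
Mir200a: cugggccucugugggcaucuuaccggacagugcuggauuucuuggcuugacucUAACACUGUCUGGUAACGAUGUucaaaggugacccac

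Both of these genes carry AUCUUAC as the seed of their 5p arm, while the 5p seeds of the other members, AUCUUCC in Mir141, GUCUUAC in Mir200c and UCUUACC in Mir429, each occur in 1 mature miRNA of the table. Multi-mapped reads, 30.0% ± 0.382 of each library (SD, n = 2), are not in the deposited gene counts. The longest run that a family hairpin shared with any of 1004 other hairpins was 17 bases, between Mir200a and Mir141, followed by 14 bases between Mir200b and Mir200c and 12 bases for Mir429. These runs are shorter than the 21 to 23 bases of the mature arms. A whole mature read therefore matched no other hairpin of the table without mismatch, and the rest of the genome was not searched. Predicted folding energy ranged from -0.489 kcal/mol per base in Mir141 to -0.418 in Mir429. Of 276 detected hairpins, the quartiles were -0.483 and -0.388, so Mir141 lay just outside them.

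On GRCm38 all 5 genes lie on the minus strand. In order of transcription, the chromosome 4 cluster holds Mir200b (chr4:156055681-156055750), Mir200a (chr4:156054896-156054985) and Mir429 (chr4:156053905-156053987), with 695 bases between the first pair of hairpins and 908 between the next. All 3 lie in an intron of the protein-coding gene Ttll10 on the same strand. They also lie within Gm13648, a non-coding transcript, where Mir200b and Mir200a are intronic and Mir429 overlaps an exon. On chromosome 6, Mir200c (chr6:124718322-124718390) is followed after 336 bases by Mir141 (chr6:124717914-124717985), both in an intron of the non-coding gene Gm15884. Mir141 also overlaps in part an exon of Gm29008, a transcript not yet verified by the annotation. The whole chromosome 4 cluster spans 1846 bases and the chromosome 6 cluster 477.

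The libraries held 3567658 counts on the annotated strand of miRNA genes in pup 1 and 4683939 in pup 2, and 314 genes reached at least 10 counts in both. Levels are given as CPM, counts per 1000000 of these. No level is divided by length, because a miRNA read spans about a whole mature arm whatever the length of its gene. Markers of the labelled tissue were present: Mir192, Mir215, Mir194-1 and Mir194-2, miRNAs of intestinal epithelium, took 19.7% of counts in pup 1 and 23.7% in pup 2. Smooth muscle Mir143 and Mir145a took 18.1% and 15.0%, and endothelial Mir126a 5.46% and 4.98%. Markers of mesenchyme, leukocytes, erythroid cells, neurons, striated muscle, liver and pancreas, fixed as short lists, took at most 0.216% each. Several of the listed genes are numbered copies of the same miRNA, and multi-mapped reads are left out of both the gene counts and their total. Shares of lists with such copies may thus be too low, and shares of other genes too high. Of the neuronal markers Mir124a-1, Mir124a-2 and Mir124a-3 were at 0, and of the striated muscle markers Mir1a-1, Mir133a-1 and Mir133a-2, all of them such copies, so a 0 here does not show that the miRNA was missing. Mir142 and Mir1a-2 of the lists were not matched by symbol. In intestine tissue, more cells of a type and more of a miRNA per cell cannot be told apart.

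All 5 family genes were well above the detection minimum in both pups. Together they summed to 321194 counts for pup 1 and 449072 for pup 2. Their share of miRNA counts was 9.00% in pup 1 (95% interval 8.97 to 9.03, Clopper-Pearson) and 9.59% in pup 2 (9.56 to 9.61), or 9.30% ± 0.413 (SD, n = 2). Intervals here cover the error of counting alone, as PCR copies are not separate molecules. A list of 8 other epithelial miRNAs (Mir192, Mir215, Mir194-1, Mir194-2, Mir203, Mir205, Mir375 and Mir31) took 24.8% ± 2.95 of counts. The family total was 0.377 ± 0.0282 times that of the list. Mir194-1 and Mir194-2 are copies of the same miRNA and multi-mapped reads are left out, so the sum of the list is uncertain.

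Mir429, the last gene of the chromosome 4 cluster, was the highest member. Its counts were 126378 for pup 1 and 164774 for pup 2, at levels of 35423 CPM and 35179 CPM, or 35301 ± 173 CPM (SD, n = 2, as for every ± below). It ranked 5 of 1973 genes in pup 1 and 6 in pup 2. In CPM, which scales by total counts, it was nearly level between the littermates. Its coefficient of variation was 0.490%, against 6.94% to 9.76% for the other 4 members. Scaled by the upper quartile of counts, its log2 ratio, pup 1 over pup 2, was -0.07, and those of the other 4 were -0.28 to -0.23.

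Mir200b, transcribed first in the same cluster, gave 92973 counts for pup 1 and 135682 for pup 2. Its level was 26060 CPM in pup 1 and 28967 CPM in pup 2, a mean of 27514 ± 2056 CPM, and it ranked 10 and 7. Mir200c, transcribed first on chromosome 6, gave 75486 and 109460 counts, or 21158 CPM in pup 1 and 23369 CPM in pup 2, a mean of 22264 ± 1563 CPM, and ranked 12 in both. The 3 genes with the AAUACUG seed were therefore all among the 12 most abundant miRNA genes of each library.

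The genes with the AACACUG seed stood well below them. Mir141 had 16566 counts in pup 1 and 24974 in pup 2, or 4643 CPM and 5332 CPM, a mean of 4988 ± 487 CPM, at ranks 31 and 30. Mir200a, between Mir200b and Mir429 on the chromosome, had 9791 counts in pup 1 and 14182 in pup 2, or 2744 CPM and 3028 CPM, a mean of 2886 ± 200 CPM, at ranks 48 and 42. The order Mir429, Mir200b, Mir200c, Mir141, Mir200a was the same in both pups. The values of the pups did not overlap between any neighbours in that order, and each neighbour's distance exceeded the SD of either gene. With 2 pups no exact permutation test over animals could pass 0.05, so the order as a whole carries no test. Pairs within a cluster are tested below with edgeR, which pools the spread over all pairs.

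**Figure D1:**
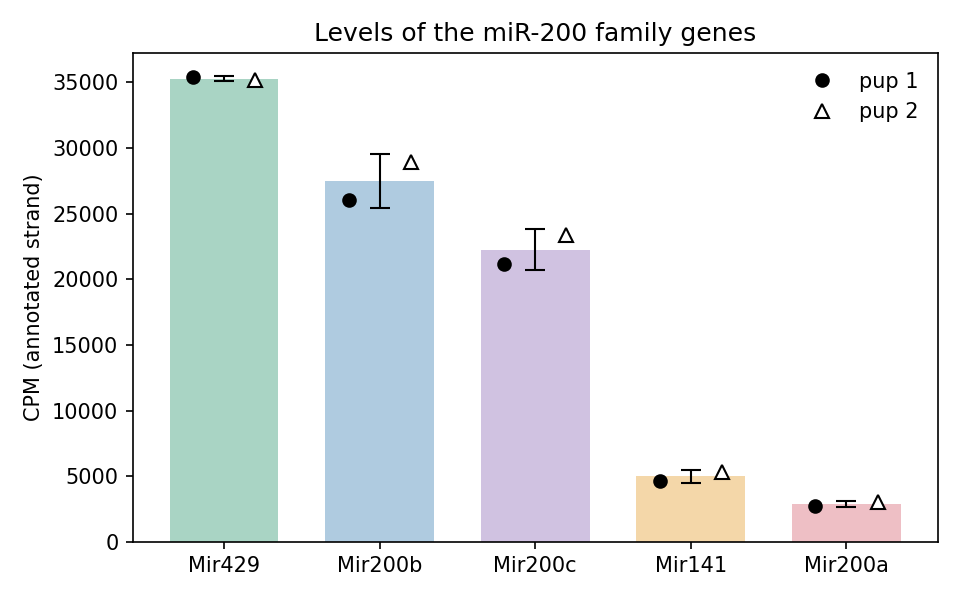
Level of each family gene in CPM on a linear axis; bars are means, error bars the SD over 2 pups, filled circles pup 1 and open triangles pup 2. Mir429, Mir200b and Mir200c lie between 21158 and 35423 CPM, and Mir141 and Mir200a between 2744 and 5332 CPM.

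**Figure D2:**
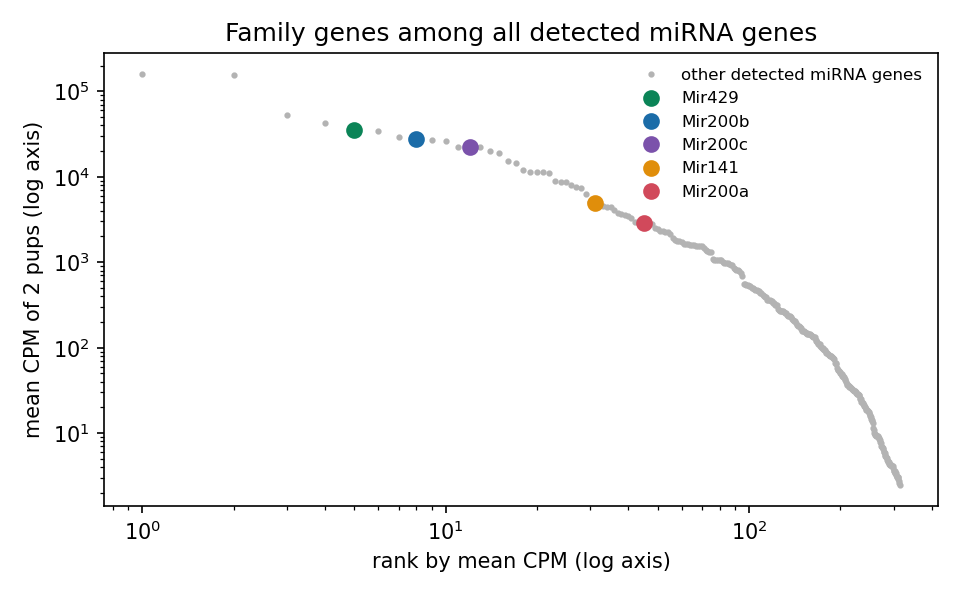
Mean CPM of 314 detected miRNA genes against their rank, both on log axes, with the family genes coloured. Mir429, Mir200b and Mir200c stand at ranks 5, 8 and 12, Mir141 at 31 and Mir200a at 45.

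By seed, AAUACUG genes held 91.8% of family counts in pup 1 (interval 91.7 to 91.9) and 91.3% in pup 2 (91.2 to 91.4), a mean of 91.5% ± 0.363. The AACACUG genes held the remaining 8.46% ± 0.363. Summed, the first seed was 11.2 times the second in pup 1 and 10.5 times in pup 2. By locus, the chromosome 4 cluster held 71.3% of family counts in pup 1 and 70.1% in pup 2, or 70.7% ± 0.903, and the chromosome 6 cluster 29.3% ± 0.903. Within the chromosome 4 cluster Mir429 took 53.8% ± 1.97, Mir200b 41.8% ± 1.80 and Mir200a 4.39% ± 0.166 of the counts. Within the chromosome 6 cluster Mir200c took 81.7% ± 0.411 and Mir141 18.3% ± 0.411. In both clusters the AACACUG member was the low one.

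**Figure D3:**
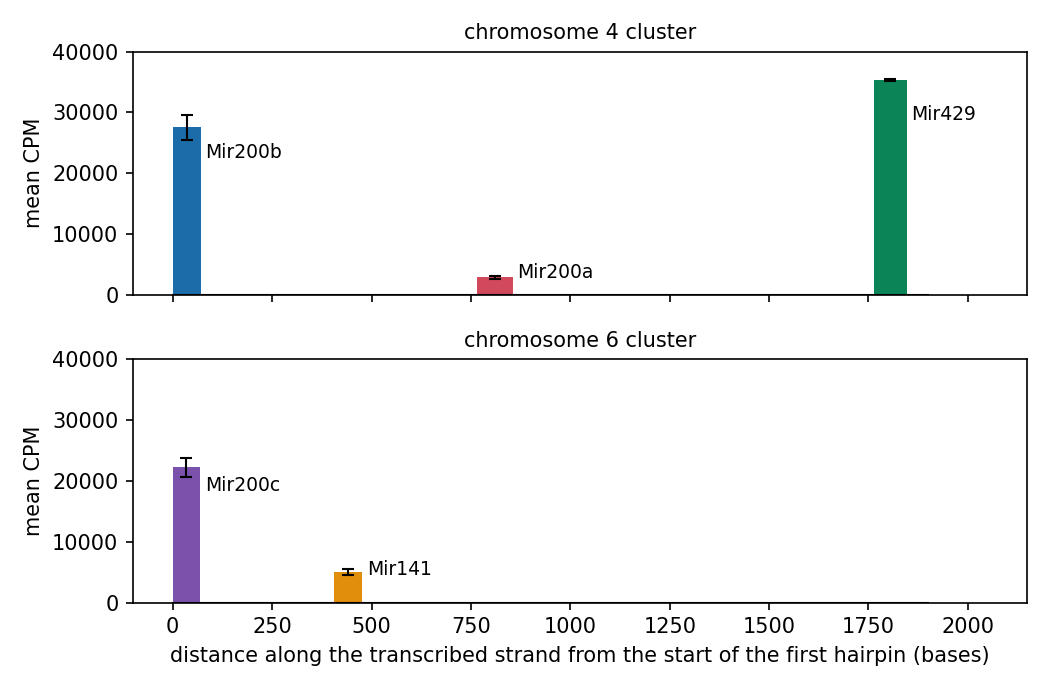
Mean CPM of each gene at its place in its cluster, drawn to scale as distance in bases along the transcribed strand from the start of the first hairpin; error bars are the SD over 2 pups. In the upper panel Mir200a, at 2886 CPM, lies between Mir200b and Mir429, which are 9.53-fold and 12.2-fold higher; in the lower panel Mir200c is 4.47-fold above Mir141.

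Genes of the same cluster were compared within libraries, over all pairs of detected miRNA genes on the same strand whose starts lay at most 10 kb apart. There were 313 such pairs of 139 genes, 202 of them on chromosome 12. Of all pairs, 93.6% differed in the quasi-likelihood test of edgeR, blocked on the pup (Benjamini-Hochberg adjusted p under 0.05), 52.4% with the gene transcribed first higher and 41.2% with the second higher, so a difference as such was the rule among clustered genes. All 4 pairs of the family passed, 2 in each direction. Pairs that share a gene are not independent, and every ratio includes any difference in how well the miRNAs are captured into libraries, which both pups share.

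Mir200b over Mir200a had a log2 ratio of 3.25 in pup 1 and 3.26 in pup 2, a mean of 3.25 ± 0.00765, and Mir200b was thus 9.53-fold higher (edgeR quasi-likelihood adjusted p = 1.44e-06). Mir200a over Mir429 had log2 ratios of -3.69 and -3.54, a mean of -3.61 ± 0.107, so Mir200a was 12.2-fold lower (adjusted p = 1.23e-06, edgeR). Mir200c over Mir141 had log2 ratios of 2.19 and 2.13, a mean of 2.16 ± 0.0397, or 4.47-fold (adjusted p = 6.53e-06, edgeR). Only Mir200b and Mir429, at the ends of the chromosome 4 cluster and with the same seed, lay close together. Their log2 ratio, Mir200b over Mir429, was -0.44 in pup 1 and -0.28 in pup 2, a mean of -0.36 ± 0.115 (adjusted p = 0.0195, edgeR), and it did not pass without the pup block (adjusted p = 0.0585).

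By size, the ratios of Mir200a over Mir429, Mir200b over Mir200a, Mir200c over Mir141 and Mir200b over Mir429 ranked 112, 126, 177 and 291 of the 313 pairs, whose median absolute log2 ratio was 2.55. By these counts the family pairs were spread across the middle and lower end of the ratios seen within clusters. Several larger ratios involve numbered copies of the same miRNA, whose multi-mapped reads are left out, such as the largest, Mir17 over Mir19b-1 (10.33). The ranks and the median are therefore uncertain. The next larger and smaller ratios around Mir200b over Mir200a were those of Mir433 over Mir127 (-3.28) and Mir679 over Mir300 (-3.25), pairs of the imprinted Dlk1-Dio3 domain. Around Mir200c over Mir141 they were Mir134 over Mir485 (2.16), of the same domain, and Mir19a over Mir19b-1 (2.15), of the miR-17-92 cluster. Around Mir200a over Mir429 they were Mir323 over Mir758 (3.67) and Mir18b over Mir363 (-3.58), and around Mir200b over Mir429 they were Mir501 over Mir500 (0.37) and Mir467e over Mir467d (-0.35). In the RefSeq table Mir19b-1 has a mature arm identical to one of Mir19b-2, so its ratio is uncertain. By SD over the 2 pups on the log2 scale, Mir200b over Mir200a (0.00765) ranked 12 of 313 from the smallest, where the median SD was 0.137. The other family pairs ranked 56 (Mir200c over Mir141), 129 (Mir200a over Mir429) and 140 (Mir200b over Mir429).

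**Figure D4:**
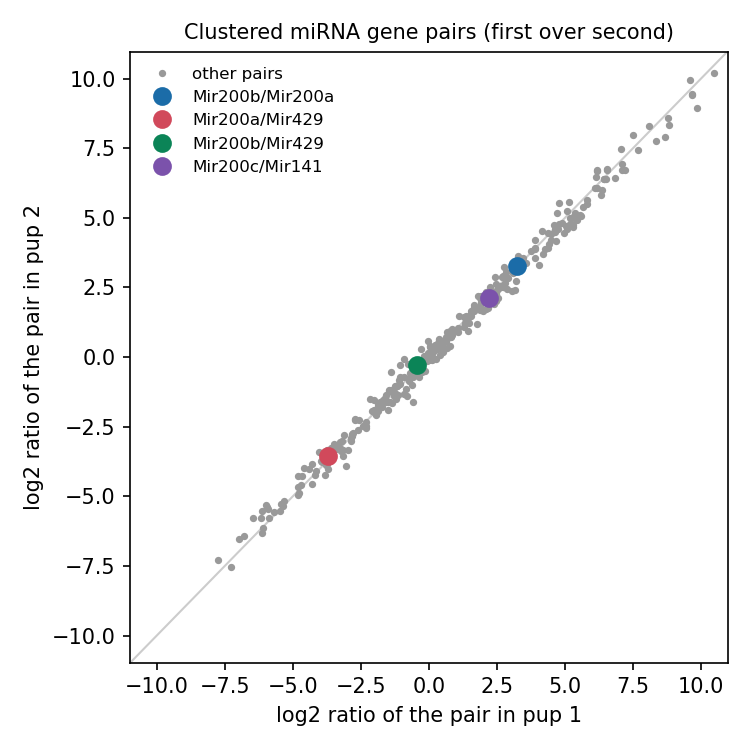
Log2 ratio of the first over the second gene of 313 clustered pairs, pup 1 on the horizontal and pup 2 on the vertical axis, with the line of equal ratios in grey and the 4 family pairs coloured. All 4 lie close to the line, at means of 3.25, -3.61, -0.36 and 2.16.

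Between the littermates the family genes were slightly lower in pup 1, except Mir429 under total-count scaling. For each of 314 detected genes, a 2-sided exact binomial test set the split of its counts against the split of effective library sizes (TMM scaling), with Benjamini-Hochberg adjustment over all 314. It compares 2 libraries of 1 animal each, with no replicate. No label says which stretch of gut each library holds. Of all genes, 41.1% were called, 19.7% higher and 21.3% lower in pup 1. Each family gene had at least 9791 counts in each library, where small differences are called, so these shares are no like comparison. Mir200b, Mir200a, Mir200c and Mir141 were called lower in pup 1 under every scaling tried, and the largest adjusted p of the 5 genes with TMM was 5.72e-09 (exact binomial test). Mir429 was called lower with TMM (log2 ratio -0.03) but stood at 0.01 and was not called with total-count scaling. Over the 5 genes the median of log2 ratios, pup 1 over pup 2, was -0.19, beside 0.00 over all genes tested, and the median absolute log2 ratio of all genes was 0.18.

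Mir141 stood furthest apart, at 0.845 in pup 1 relative to pup 2 (exact binomial 95% interval 0.829 to 0.862), which is -0.24 on the log2 scale. Mir200b had 0.873 (0.866 to 0.881), Mir200c 0.879 (0.871 to 0.887) and Mir200a 0.880 (0.857 to 0.903), and the intervals of these 3 genes overlapped one another. Mir429 had 0.978 (0.970 to 0.985), a log2 ratio of -0.03. By absolute log2 ratio Mir141 ranked 108 of 314, Mir200b 145, Mir200c 152, Mir200a 153 and Mir429 273. Mir141 thus lay above the median of 0.18 and below the upper quartile of 0.31, Mir200b, Mir200c and Mir200a near the middle, and Mir429 well below it. The split of all calls, 62 higher and 67 lower in pup 1, was 74 to 53 with total counts and 46 to 84 with upper-quartile scaling.

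Ratios between members do not depend on scaling. For Mir200b to Mir200a the ratio in pup 1 divided by that in pup 2 was 0.993 (95% interval 0.966 to 1.02, Fisher's conditional estimate). That of Mir200b to Mir200c, on different chromosomes, was 0.994 (0.981 to 1.01), and that of Mir200a to Mir200c 1.00 (0.974 to 1.03), so all 3 intervals included 1. The intervals of Mir141 against these 3 genes excluded 1. The value was 1.04 (1.02 to 1.06) for Mir200c to Mir141, 1.03 (1.01 to 1.06) for Mir200b to Mir141 and 1.04 (1.01 to 1.08) for Mir200a to Mir141. The intervals of Mir429 against all 4 others also excluded 1. The value was 1.16 (1.13 to 1.18) for Mir429 to Mir141 and 1.11 (1.10 to 1.13) for Mir429 to Mir200c. Mir200b to Mir429 had 0.893 (0.884 to 0.903) and Mir200a to Mir429 0.900 (0.876 to 0.925). These intervals cover counting error alone and not the spread between littermates. The log2 SDs of Mir200c over Mir141 (0.0397), Mir200a over Mir429 (0.107) and Mir200b over Mir429 (0.115) were below the median of 0.137 over 313 clustered pairs. Summed by locus, the chromosome 4 cluster was 2.49 times the chromosome 6 cluster in pup 1 and 2.34 times in pup 2, a ratio of ratios of 1.06 (1.05 to 1.07).

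**Figure D5:**
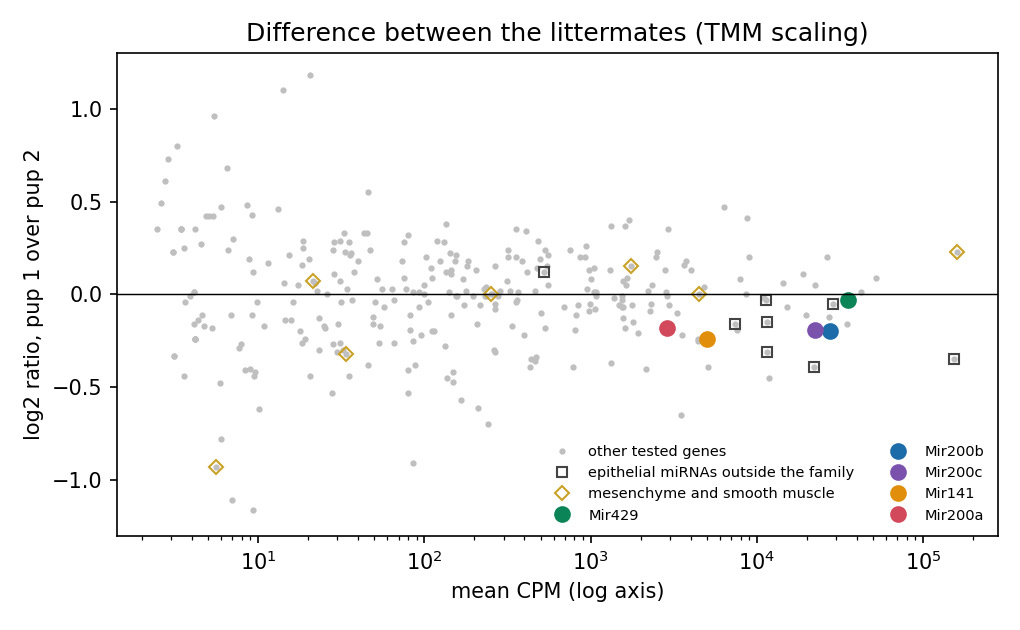
Log2 ratio of pup 1 over pup 2 (TMM scaling) against mean CPM on a log axis for 312 of 314 tested genes, with 2 genes beyond the vertical axis left out; family genes are filled circles, other epithelial miRNAs squares, mesenchyme and smooth muscle miRNAs diamonds. The family lies between -0.24 and -0.03, the last being Mir429, which stood at 0.01 with total-count scaling. The genes left out are Mir196b (4.91) and Mir196a-2 (3.31), both called higher in pup 1.

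Other epithelial miRNAs differed between the pups in the same direction for the most part. Of the 8 listed, 7 were called lower in pup 1 and 1 was called higher, beside 21.3% lower and 19.7% higher of all genes. All 8 had at least 1975 counts in each library, where small differences are called, so these shares are no like comparison. Their median on the log2 scale was -0.15, beside 0.00 over all genes tested. With total-count scaling 5 were called lower and 1 higher, and the log2 ratio of Mir375, a miRNA of endocrine cells, changed sign. Mir215, a miRNA of intestinal epithelium, had 138090 CPM in pup 1 and 170988 CPM in pup 2, with a log2 ratio of -0.35. Mir192, its paralog, had 28827 CPM and 28960 CPM, with -0.05, and Mir194-1, from the same locus as Mir215, had 19369 CPM and 24672 CPM, with -0.39. Its 5p arm is identical to that of Mir194-2 in the RefSeq table, and multi-mapped reads are left out. The levels of both copies, and with them the sum of the list, are therefore uncertain. Mir203, a miRNA of skin and other epithelia, had 11088 CPM and 11932 CPM, with -0.15. Summed over the list, the family made up 0.397 of the other epithelial counts in pup 1 and 0.357 in pup 2, a ratio of ratios of 1.11 (1.11 to 1.12). Mir205 was the one called higher in pup 1 (0.12), at 554 CPM in pup 1 and 493 CPM in pup 2, and it was not called with upper-quartile scaling.

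Of 9 mesenchyme and smooth muscle miRNAs, 7 were tested, with 2 called higher and 0 lower in pup 1 (exact binomial test; median log2 ratio 0.00), a count near the 19.7% called higher of all genes. With total counts 3 were called higher, and with upper-quartile scaling 2 higher and 1 lower. Mir143 of smooth muscle had 176506 CPM in pup 1 and 145700 CPM in pup 2, with a log2 ratio of 0.23, and Mir214 of mesenchyme 1868 CPM and 1638 CPM, with 0.15. Mir145a, the partner of Mir143, had 4550 CPM and 4429 CPM, with 0.00 and no call, and Mir199b of mesenchyme 256 CPM and 248 CPM, also with 0.00 and no call. The log2 ratios of the 7 reached down to -0.32 for Mir199a-2 and -0.93 for Mir218-1, which had 14 counts in pup 1 and 34 in pup 2, and neither was called. The family was 0.491 of the summed counts of this list in pup 1 and 0.630 in pup 2, with a ratio of ratios of 0.779 (0.775 to 0.784). That sum is mostly Mir143, with 629713 of 653737 counts in pup 1 and 682452 of 712345 in pup 2. The part of the tissue's cell makeup in the family's difference was not tested.

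Among 8 other miRNAs studied in epithelial-mesenchymal transition, 2 were called higher in pup 1 and 2 lower, shares near those of all genes (19.7% and 21.3%), and the median on the log2 scale was -0.05. With upper-quartile scaling 1 was called higher and 2 lower. Mir21a, raised in many growing and injured tissues, had 33273 CPM in pup 1 and 36127 CPM in pup 2, with -0.16, and Mir10b, of a Hox cluster, had 10142 CPM and 7400 CPM, with 0.41. The other 2 called, Mir203 (lower) and Mir205 (higher), are also in the epithelial list. The 4 not called were Mir34a, Mir34b and Mir34c, which p53 induces, and Mir155 of activated leukocytes, at means of 8.94 to 268 CPM. The 8 genes summed to 5.60% ± 0.0636 of counts, below that of the family, which was 1.62 times as large in pup 1 and 1.70 times in pup 2.

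The detected genes outside the family whose levels were nearest to each member over both libraries, by Euclidean distance of log2 CPM, were Mir26b for Mir200b (distance 0.06), Mir744 for Mir200a (0.07), Mir21a for Mir429 (0.10), Mir30a for Mir141 (0.11) and Mir194-1 for Mir200c (0.15). Mir26b had 26402 CPM in pup 1 and 27892 CPM in pup 2. With 2 libraries this measures likeness of level and little else, and the level of Mir194-1 is uncertain, as given above.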

How the data were processed

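Small RNA of the intestine of 2 newborn pups was sequenced, with 1 library each and a size range below 30 per the labels. The authors deposited raw read counts per miRNA gene, made on mm10 with GENCODE M4 per the text file deposited with the counts; the aligner and counter are not given in the sources used here. The 3 columns of counts per file hold, by their sums, reads on either, the annotated and the opposite strand; the annotated strand was used. Totals of reads in no gene stayed out of library sizes: 9.75% of reads were unmapped, 30.0% mapped to several places and 2.32% lay outside miRNA genes (means, n = 2). Of 1973 identifiers, 1894 matched GENCODE M21 on GRCm38, the assembly mm10 names, and the other 79 held 0 counts. RefSeq hairpins matched 276 of 314 detected genes by symbol. The pups are separate animals of 1 litter, so p-values of the clustered pairs cover only the spread between these littermates. edgeR pools that spread over all pairs, and their small p-values rest on this pooling. The p-values of the pup comparison cover counting error alone.

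The members, lists and tests were chosen with earlier results of these data known. The named genes were all members, the nearest gene to each, the lists' highest genes and the pairs next to the members' pairs in size of ratio. R 4.3.3 ran edgeR 4.0.16 (TMM over detected genes, quasi-likelihood), limma 3.58.1 with a pseudocount of 0.5 and DESeq2 1.42.0; Python 3.11.15 with SciPy 1.17.1 gave intervals and RNAfold 2.7.2 folding energies. Both tests were tested on simulated data. Alternatives were other scalings, count minimums (none and 100), strand-blind counts, cluster distances of 3 and 50 kb, other denominators, other tests and each pup alone.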

Additional observations from a re-analysis of the deposited data

Results flagged for a closer look

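Reads on the strand opposite Mir200a, in a column used only within the strand-blind alternative, numbered 4 in pup 1 and 5 in pup 2, above the 3 counts that a count of 0 allows. They made up 0.0408% and 0.0352% of the reads at that gene, and the other 4 members had 0 in both pups. Of 314 detected genes, 290 had no read on the opposite strand.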

How the results depend on the processing

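The family share of 9.30% became 5.20% with all reads of a library as the denominator and 11.1% without the highest gene, Mir143. The chromosome 4 cluster's share of family counts became 68.5% when counts were divided by annotated gene length, where the order of the 5 levels held. Calls among clustered pairs numbered 127 of 138 pairs at 3 kb and 574 of 609 at 50 kb, against 293 of 313 at 10 kb, because the number of pairs changed. All 4 family pairs were called in each of these and with limma, DESeq2, strand-blind counts and a minimum of 100; without the pup block Mir200b over Mir429 (-0.36) missed the threshold at adjusted p = 0.0585 (edgeR). Between the pups Mir429 turned to 0.01 with total counts and was not called (adjusted p = 0.137, exact binomial test); the other members kept direction and call under the 6 alternatives to the binomial comparison. Each pup alone gave, for pup 1 and pup 2 in turn, family shares of 9.00 and 9.59% and the same order of the 5 genes. In the same way, shares of family counts were 91.8 and 91.3% for the AAUACUG genes. For the chromosome 4 cluster they were 71.3 and 70.1%. Strand-blind counting, where opposite-strand reads join the total, lowered the mean CPM of all 5 members. They stood at 34111 for Mir429, 26587 for Mir200b, 21514 for Mir200c, 4820 for Mir141 and 2790 for Mir200a. Leaving out a pup leaves no test of the pairs. No other paired analysis was possible because the series has 1 group. A count of 0 allows up to 3 counts, or 0.841 CPM in pup 1 and 0.640 CPM in pup 2, far below every member.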
